A study of Mus musculus with 4 samples.

Results

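Plasmacytoid dendritic cells were described here among cells from mouse colon tumours measured by single-cell RNA sequencing. Such a cell was a barcode with at least 2 UMIs (unique molecular identifiers, tags that mark single RNA molecules) of Siglech and at least 1 of Bst2, fewer than 0.05% of its UMIs in C1qa, C1qb and C1qc together, and 0 UMIs of Cd3e. This rule was applied to the 14198 of 18026 barcodes that held at least 500 UMIs and 200 genes and at most 20% mitochondrial UMIs. It kept 126 barcodes, or 0.887% of those passing (exact binomial 95% interval 0.740 to 1.06). The genes of the rule (Siglech, Bst2, the 3 C1q genes and Cd3e) chose the cells and are given as a description only.

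Plasmacytoid dendritic cells arise in the bone marrow under the transcription factor TCF4 (also called E2-2), circulate in blood and enter tissues, the intestine among them. They read viral and self nucleic acid in endosomes through TLR7 and TLR9 and are known as fast producers of type I interferon. They share many transcripts with developing lymphocytes, and unlike conventional dendritic cells they present antigen poorly until activated.

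All mice were female C57BL/6. The tumours were induced with azoxymethane (AOM), a carcinogen, at 12.5 mg/kg and with 3 cycles of dextran sulphate sodium (DSS), which injures the colon lining, and were collected 30 days after the final DSS cycle. There were 4 groups of 1 sample each: CD45+ cells of Egfr{delta}MYL mice, CD45- cells of Egfr{delta}MYL mice, CD45+ cells of Egfr fl/fl mice and CD45- cells of Egfr fl/fl mice. Age, the Cre driver behind the MYL deletion and the number of animals pooled are not given in the sources used here. CD45 is the pan-leukocyte surface protein, and the digested cells were sorted on CD45 and EPCAM. The counts came as 1 matrix whose barcodes end in the numbers 1 to 4, which could not be matched to the 4 samples from the sources at hand. Barcodes sharing a number are therefore called a library, no library was given a genotype or a sort, and no genotype comparison was made.

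Libraries 1, 2, 3 and 4 had 594, 1706, 4516 and 7382 passing barcodes, and 1, 2, 33 and 90 of these were plasmacytoid dendritic. Their shares were 0.168% (0.00426 to 0.934), 0.117% (0.0142 to 0.423), 0.731% (0.504 to 1.02) and 1.22% (0.981 to 1.50). Library 4 thus held 71.4% of the cells and library 3 held 26.2%, so every pooled value below is chiefly a value of these libraries. Libraries 1 and 2 stood apart: they held 11 and 8 T barcodes by the rule given below, against 1048 and 1057 in libraries 3 and 4. The 126 cells held 1194719 UMIs, with a median of 9814 per cell (1604 to 18716), against 4901.5 in all other passing barcodes. Their median of 3048 genes per cell compared with 1621, and their median mitochondrial share of 2.84% with 2.48%. A higher depth makes any gene easier to see in a cell, so shares of cells are given beside levels in CPM, the UMIs of a gene scaled to all UMIs of the same barcodes, and with cells thinned to 1000 UMIs where it matters. Among passing barcodes 28 had a sequence that occurs in more than 1 library, and 0 of them were plasmacytoid dendritic.

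The label was checked on genes outside the rule. Each cell held 2 to 39 Siglech UMIs (median 16.5) and 1 to 78 Bst2 UMIs (median 31), values that the rule fixes in part. Of the markers it did not use, Tcf4 was seen in 125 of 126 cells, Irf8 in 120, Ly6d in 121, Ccr9 in 114, Cox6a2 in 109, and Runx2 and Cd300c in 103 each. Of these 7 genes, 76 cells held all 7, 30 held 6, and 2 cells held only 2. The 5 cells just inside the threshold, with 2 Siglech UMIs, all held Tcf4, but 1 held Ccr9 and 0 held Cox6a2. The 18 barcodes just outside it, with 1 Siglech UMI and all other conditions met, held Tcf4 in 12, Ccr9 in 7, Ly6d in 2 and Cox6a2 in 0. A further 3 barcodes with enough Siglech had no Bst2, 2 had Cd3e and 1 failed the C1q limit.

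The upstream sequences of 3 genes whose RNA was high in these cells are shown for orientation, because TCF4, the factor known to drive this cell type, is an E protein that binds E-box motifs. The windows are the 250 bases before the RefSeq transcription start (build GRCm38.p6), printed 5′ to 3′ on the gene's strand, with CAGGTG or its other-strand form CACCTG in capitals. They are chr9:123766961-123767210 on the + strand for Ccr9, chr11:114960508-114960757 on the - strand for Cd300c and chr19:41029025-41029274 on the + strand for Dntt, in which neither form occurs.
Ccr9: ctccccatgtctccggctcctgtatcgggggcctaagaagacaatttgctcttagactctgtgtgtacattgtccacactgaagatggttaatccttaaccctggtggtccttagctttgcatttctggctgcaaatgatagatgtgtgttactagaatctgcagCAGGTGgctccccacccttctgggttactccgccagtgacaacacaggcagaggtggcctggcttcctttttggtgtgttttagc
Cd300c: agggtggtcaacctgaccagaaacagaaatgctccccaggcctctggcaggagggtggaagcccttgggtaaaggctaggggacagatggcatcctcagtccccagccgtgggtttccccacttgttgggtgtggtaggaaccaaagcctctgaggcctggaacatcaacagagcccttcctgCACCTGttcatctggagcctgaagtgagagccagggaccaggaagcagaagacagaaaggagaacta
Dntt: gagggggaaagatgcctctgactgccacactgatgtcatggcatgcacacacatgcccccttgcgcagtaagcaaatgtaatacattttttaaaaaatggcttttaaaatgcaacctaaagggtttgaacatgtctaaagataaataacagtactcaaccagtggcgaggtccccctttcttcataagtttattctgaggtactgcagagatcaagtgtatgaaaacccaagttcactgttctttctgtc
RefSeq windows were found for 11 of the 20 genes with the highest ratios, and 5 of the 11 (45.5%) held the motif on either strand. Counted in the same way by gene, the share was 19.4% of 27025 genes and 17.8% of 7354 of the genes compared below. Counted by single window, it was 17.2% of all 32851 windows of this length. The motif was chosen with the gene list in view, 11 genes are few, and a match in these letters is a description and not a binding site.

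For each gene, the summed UMIs of the 126 cells were set against those of all other passing barcodes, as CPM. With 1 pooled matrix and no replicates there is no test and no p-value, and all intervals are exact 95% intervals that cover counting error only. A gene was compared when either side held enough UMIs for at least 10 to be seen or expected in the plasmacytoid dendritic cells, and it was called when the levels differed at least 2-fold. Of 9322 such genes, 1554 (16.7%) were higher and 1685 (18.1%) were lower in plasmacytoid dendritic cells, and the median log2 ratio over all of them was 0.29. Without library 4 the numbers were 1075 and 881, and with every cell thinned to 1000 UMIs they were 776 and 425. Summed levels cannot tell more cells that express a gene from more RNA per expressing cell. The shares of 16.7% and 18.1% and the median of 0.29 are the background for each list count below.

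Known identity genes of plasmacytoid dendritic cells were the list with the highest median. All 28 reached the count minimum, 27 were higher, 0 were lower and the median log2 ratio was 3.82. These genes were picked because they mark the cell type, so their direction is a check of the label and no separate evidence. Tcf4 had 1131, 1314, 1289 and 1368 CPM in the cells of libraries 1, 2, 3 and 4, and 1343 CPM (1278 to 1411) pooled, against 121 CPM in all other barcodes. Its log2 ratio was 3.48 (3.40 to 3.55), and the 4 library values lay close together although libraries 1 and 2 rest on 1 and 2 cells. Irf8, a transcription factor of plasmacytoid and type 1 conventional dendritic cells, had 2610, 2873, 2350 and 2636 CPM in the cells of libraries 1 to 4, against 178 CPM in all other barcodes, a log2 ratio of 3.84. Runx2, known for its role in the exit of these cells from bone marrow, had a log2 ratio of 3.80, and Spib and Bcl11a, factors shared with B cells, had 3.96 and 4.42.

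Ccr9, the receptor for the gut chemokine CCL25, reached 1044, 164, 762 and 1181 CPM in the cells of libraries 1, 2, 3 and 4. The pooled 1053 CPM (996 to 1113) stood against 6.89 CPM in all other barcodes, a log2 ratio of 7.26, and library 2, with 2 UMIs, both in 1 of its 2 cells, was the low value. Ly6d, a surface protein of B lineage progenitors and plasmacytoid dendritic cells, had 0, 3694, 2717 and 3543 CPM in libraries 1 to 4, where library 1 is 1 cell. Its pooled level was 3281 CPM against 185 CPM in all other barcodes, a log2 ratio of 4.15. Cox6a2 (chr7:128205435-128206387, - strand of mm10) codes for a subunit of cytochrome c oxidase known from heart and skeletal muscle. It had 1566, 2052, 1292 and 1657 CPM in libraries 1 to 4 and 1559 CPM (1489 to 1631) pooled, against 0.748 CPM in all other barcodes, a log2 ratio of 11.03. A Cox6a2 UMI was seen in 86.5% of the cells and in 0.330% of 2124 T barcodes (at least 2 Cd3e UMIs; median depth 5547.5). After thinning to 1000 UMIs the shares were 56.3% and 0.0473%.

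Klk1, a kallikrein serine protease, and Atp1b1, a subunit of the sodium pump, were higher by log2 ratios of 4.87 and 2.60 in the pooled matrix. Within library 3 the ratios were 10.38 and 5.13, and within library 4 they were 9.78 and 5.91, so both pooled ratios were the smaller ones. Klk1 and its close relative Klk1b27 may share reads, so the split between them is uncertain. Mzb1, a chaperone of the endoplasmic reticulum in B cells and plasma cells, was the 1 identity gene that was not higher: 289 CPM in plasmacytoid dendritic cells against 302 CPM in all other barcodes, a log2 ratio of -0.06 (-0.22 to 0.09). B barcodes held 740 CPM of it.

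**Figure D1:**
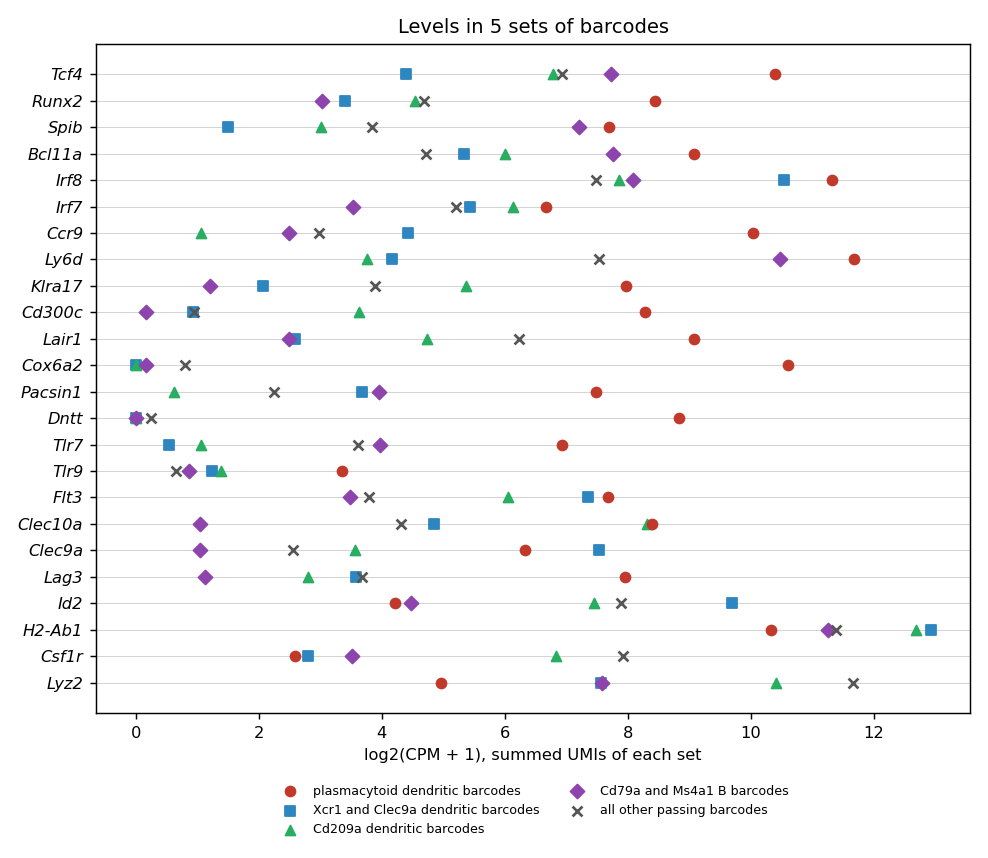
Levels of 24 genes as log2(CPM + 1) from the summed UMIs of plasmacytoid dendritic barcodes (red circles), 3 related sets of barcodes and all other passing barcodes (crosses). Tcf4, Ccr9, Cox6a2 and Dntt were highest in the plasmacytoid dendritic set, and Id2, H2-Ab1, Csf1r and Lyz2 were lower there than in all other barcodes.

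The 20 genes with the highest ratios, among those with at least 30 UMIs in the cells and seen in at least 10% of them, included 5 of the identity list, Cox6a2, Cd300c, Cd209d, Ccr9 and Smim5. Grm8, a metabotropic glutamate receptor, had 31.0 CPM against 0.00831 CPM in all other barcodes, a log2 ratio of 11.86 (9.30 to 17.2) that rests on 37 UMIs. Dntt, the terminal transferase that adds bases at antigen receptor joints, had 454 CPM against 0.191 CPM, a ratio of 11.21 (10.61 to 11.88). Its library values were 87.0, 739, 247 and 536 CPM, lower in library 3 than in library 4. Atp2a1, a calcium pump known from fast muscle, had 170 CPM against 0.125 CPM, with a ratio of 10.41, and was seen in 72.2% of cells. Gm21762 followed at 10.15.

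The other high genes were mostly ones with no textbook role in dendritic cells. Lefty1, a secreted inhibitor of Nodal signalling, had 275 CPM against 2.23 CPM, a ratio of 6.94 (6.71 to 7.18), and was seen in 80.2% of the cells and 0.659% of T barcodes. Adam11, an ADAM family protein known from neurons, had a ratio of 7.10, and Cd209d, a relative of the lectin DC-SIGN, had 7.86. Fbxl13, Foxr1, the neurexin Nrxn2, the long noncoding RNA AC140186.1, Pdzd4, Klk1b27, Fyb2 and Ccdc162 followed with ratios of 6.49 to 8.95. Gm14964 (7.80) is annotated antisense, on the - strand, and lies inside the span of Nrxn2, which is on the + strand. Whether counting used strand was not stated, so it is uncertain whether the reads of these genes were kept apart. For every one of the 20 genes the log2 ratio was positive within library 3 and within library 4. These libraries hold most of the cells behind the pooled ratios by which the genes were picked, so this is no separate check.

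The cells were also set against 3 sets of barcodes from related cell types. These were 99 dendritic barcodes with Xcr1 and Clec9a (type 1; median depth 23063 UMIs), 138 with at least 2 Cd209a UMIs (median 12427.5) and 1459 B barcodes with Cd79a and Ms4a1 (median 4281). Relative to the Xcr1 and Clec9a set, 24.9% of 8594 genes were higher in plasmacytoid dendritic cells and 11.7% were lower. Relative to the Cd209a set these were 28.0% and 12.4% of 8579 genes, and relative to B barcodes 23.2% and 10.7% of 8697 genes. Without library 4, 561, 666 and 509 genes were lower than in the type 1, Cd209a and B sets, and 1358 were higher than in the Cd209a set, against 1004, 1061 and 930 lower and 2405 higher with all libraries. Of the 28 identity genes, 26, 25 and 25 were higher than in the type 1, Cd209a and B sets. Irf8 was 1495 CPM in the type 1 set, 232 CPM in the Cd209a set and 270 CPM in B barcodes, so among the sets compared the type 1 dendritic barcodes came nearest to the 2559 CPM of plasmacytoid dendritic cells. Tcf4 was 20.1, 110 and 211 CPM in the same sets, lowest in the type 1 dendritic barcodes.

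Transcription factors that separate dendritic lineages were divided, with 4 of 13 higher, 5 lower and a median log2 ratio of -0.50. Over all genes tested 16.7% were higher and 18.1% lower, with a median of 0.29. Id2, an inhibitor of E proteins needed by type 1 conventional dendritic cells, had 17.6 CPM (10.9 to 26.9) against 237 CPM in all other barcodes, a log2 ratio of -3.75. Type 1 dendritic barcodes held 826 CPM of it. Batf3, another factor of that lineage, had 0 UMIs in plasmacytoid dendritic cells and was at least 11.6-fold lower than in all other barcodes. Zeb2, a repressor important for plasmacytoid dendritic cell development, was 362 CPM against 292 CPM in all other barcodes and 13.7 CPM in type 1 dendritic barcodes. Mef2c and Ikzf1, factors of lymphoid development, had ratios of 1.90 and 1.79.

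Several partners of endosomal nucleic acid sensing were high, among them Tlr7, Tlr9, Unc93b1 and Slc15a4, while Tlr2, Tlr3 and Tlr4 were low. Of 20 nucleic acid sensing genes, 7 were higher and 6 lower, with a median of 0.02 beside the 0.29 of all genes. Tlr7, the endosomal receptor of single-stranded RNA, had 0, 0, 63.3 and 147 CPM in libraries 1 to 4 and 121 CPM pooled, against 11.2 CPM in all other barcodes, a log2 ratio of 3.42. Tlr9, the receptor of unmethylated DNA, had a ratio of 3.98 (2.92 to 4.91) that rests on 11 UMIs. Slc15a4, an endolysosomal transporter needed for their interferon response, had 2.54, Unc93b1, the chaperone of these receptors, 1.46, and Pld4, an endosomal nuclease, 2.95. Irf7, the factor that switches on interferon genes, was 101 CPM against 35.9 CPM, a ratio of 1.50. Tlr2 and Tlr4, receptors of bacterial products, had ratios of -3.72 and -2.56 from 9 and 4 UMIs, and Tlr3 was a single UMI in plasmacytoid dendritic cells against 241 CPM in type 1 dendritic barcodes.

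Interferon transcripts themselves were all but unseen. The 14 interferon alpha genes in the matrix had 0 UMIs in the 126 cells, which by the 3-count limit for a count of 0 allows a share of up to 2.38% of cells with a UMI and 2.51 CPM. These genes are close copies of each other, so reads that fit several of them may not have been counted. All other barcodes together held 1. Ifnb1 was seen as 1 UMI and Ifnl3 as 2 UMIs in 1 cell, and Ifng had 0 UMIs, at least 9.66-fold lower than in all other barcodes. At this depth interferon alpha RNA was thus not detectable in plasmacytoid dendritic cells.

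Genes of the interferon response, which here include receptor chains and signalling factors beside induced genes, were lower more often than higher: 9 of 17 were lower and 5 higher, with a median of -2.24. Isg15 was 32.6 CPM against 231 CPM (log2 ratio -2.82) and Rsad2 1.67 CPM against 40.9 CPM (-4.61), while Ifit3 had 0 UMIs. The higher ones were the receptor chains Ifnar1 (503 CPM against 101 CPM, log2 ratio 2.31) and Ifnar2 (1.91), the signalling factor Stat2 (2.19), Usp18 (1.34) and Ifi44 (2.73, from 35 UMIs). The list median was positive, at 0.90, once cells holding a marker of another type were left out, and at 0.33 without library 4, where fewer UMIs leave fewer genes at the count minimum. In plasmacytoid dendritic cells relative to type 1 dendritic barcodes the list was divided, with 5 of 14 higher and 4 lower. Over all genes in that comparison 24.9% were higher and 11.7% lower.

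**Figure D2:**
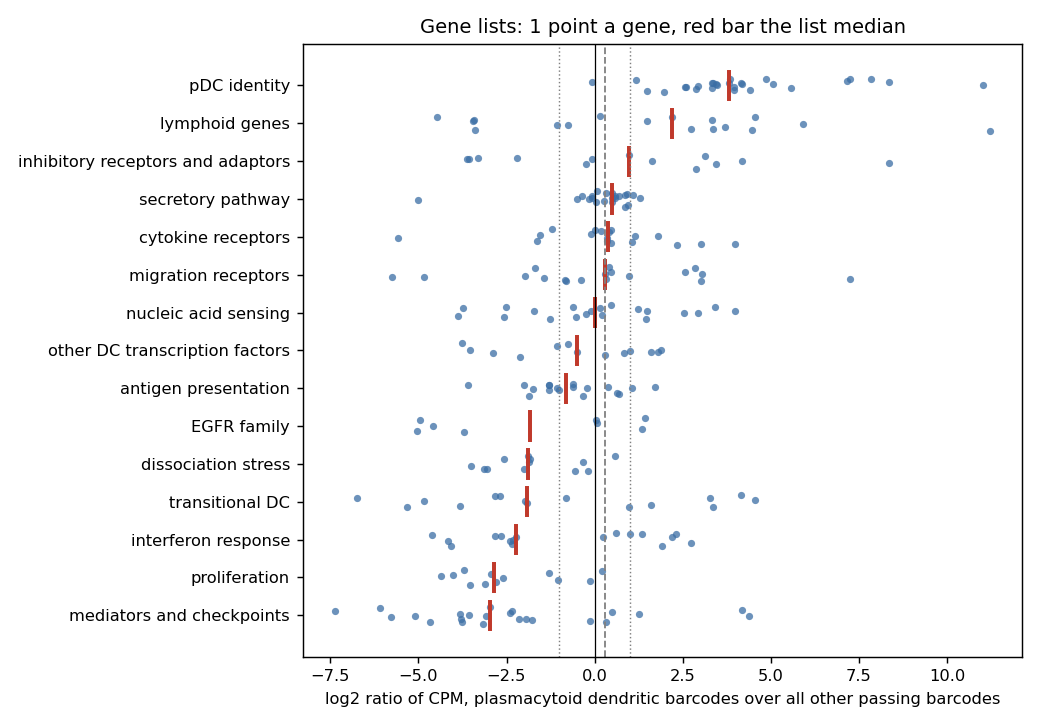
Log2 ratio of CPM in plasmacytoid dendritic barcodes over all other passing barcodes, with 1 point for each gene that reached the count minimum and a red bar at each list's median; genes at 0 UMIs are drawn at their 3-count bound. The dashed line is the median of all genes (0.29) and dotted lines mark 2-fold; the identity list has the highest median (3.82) and, of the lists drawn, the mediator list the lowest (-2.95). The interferon gene list is not drawn because 1 of its 20 genes reached the minimum.

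Antigen presentation genes were lower more often than higher, with 9 of 18 lower, 2 higher and a median of -0.81. H2-Aa, the alpha chain of the class II molecule I-A, had 4001, 328, 2654 and 2093 CPM in libraries 1 to 4 and 2249 CPM (2165 to 2336) pooled, against 3411 CPM in all other barcodes. The log2 ratio was -0.60, short of 2-fold, while H2-Ab1 (-1.07) and H2-Eb1 (-1.29), which code for class II beta chains, were past it. Set against type 1 and Cd209a dendritic barcodes, where H2-Aa was 8668 and 8548 CPM, the gap was wider, and 13 of the 18 genes were lower in plasmacytoid dendritic cells in each comparison. Over all genes in these comparisons 11.7% and 12.4% were lower. Cd80 and Cd86, the costimulatory ligands of CD28, had ratios of -3.58 and -1.99 to all other barcodes. Tapbp, the tapasin of class I loading (1.06), and H2-Oa, a chain of the class II editor DO (1.71), were the 2 higher genes. Without library 4 the list median was 0.22.

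Receptors for migration were divided relative to all other barcodes, with 5 of 18 higher and 5 lower, and a median of 0.31. This median was close to the 0.29 of all genes tested, of which 16.7% were higher and 18.1% lower. Besides Ccr9, the higher ones included Selplg, which codes for the adhesion ligand PSGL-1 (1243 CPM against 174 CPM, log2 ratio 2.84), Cxcr3, the receptor of interferon-induced chemokines (2.57), and the sphingosine phosphate receptor S1pr4 (3.03). S1pr1, the related receptor of lymphocyte egress, was 1 UMI against 45.3 CPM, a ratio of -5.76 (-11.06 to -3.28). Cx3cr1 (-4.83) and Ccr7 (-1.97), the receptor for homing to lymph nodes, were lower too, and 41.3% of the Ccr7 UMIs were in 1 cell.

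Cytokine receptors included 6 of 18 higher and 4 lower, with a median of 0.38, beside 16.7% higher and 18.1% lower and a median of 0.29 over all genes tested. Flt3, the receptor for the dendritic cell growth factor FLT3L, was 203 CPM against 12.9 CPM, a log2 ratio of 3.98, and close to the 162 CPM of type 1 dendritic barcodes. Il7r, the receptor chain for lymphoid IL-7, was 547 CPM against 108 CPM (2.33), and Csf2rb2, the IL-3 receptor beta chain of mice, had 3.01. Csf1r, the receptor of macrophage growth factor, was 5.02 CPM against 242 CPM, a ratio of -5.59. Relative to the type 1, Cd209a and B sets 10 of 17, 8 of 18 and 9 of 18 cytokine receptors were higher. Lower ones numbered 3, 4 and 2, with list medians of 1.71, 0.46 and 1.01. Over all genes in these comparisons 24.9%, 28.0% and 23.2% were higher and 11.7%, 12.4% and 10.7% lower.

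Inhibitory receptors and their adaptors, several of which are known to restrain interferon output in these cells, had 6 of 13 higher and 4 lower when the rule genes Siglech and Bst2 are set aside. The median was 0.96, beside 16.7% higher, 18.1% lower and a median of 0.29 over all genes tested. Relative to the Cd209a set 6 were higher and 5 lower, with a median of -0.45. Over all genes compared with that set 28.0% were higher and 12.4% lower. Lilrb4a, Pilra and Pilrb1 of this list were seen in 11, 8 and 2 of the 126 cells. Lair1, a collagen receptor, had a log2 ratio of 2.87, Klra17, the Ly49Q receptor, 4.18, Cd300c 8.36, Clec12a 3.13 and the phosphatase Ptprs 3.43. Tyrobp, the adaptor DAP12 through which Siglec-H signals, was 4111 CPM against 1324 CPM, a ratio of 1.63. The related adaptor gene Fcer1g was 1135 CPM against 1356 CPM, a ratio of -0.26.

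Lymphocyte genes were the list with the second highest median, 2.21, with 10 of 17 higher and 5 lower. Cd8a had 87.0, 82.1, 229 and 578 CPM in the cells of libraries 1 to 4 and 471 CPM (433 to 512) pooled, against 19.9 CPM in all other barcodes, a log2 ratio of 4.57. Cd8b1 was similar at 602 CPM against 27.5 CPM (4.45), and library 3 exceeded library 4 for it (675 and 590 CPM) but not for Cd8a. Cd7 and Klrd1, surface molecules of T and NK cells, had ratios of 3.70 and 3.36, and Ptcra, the pre-T cell receptor alpha chain, 5.91 from 78 UMIs in 29.4% of cells. Klrd1 was 542 CPM in plasmacytoid dendritic cells and 324 CPM in the Cd209a set, a log2 ratio of 0.74, short of 2-fold. The type 1 set held 77.3 CPM of it and B barcodes 4.28 CPM. Ighm, the IgM heavy chain, was seen in 99.2% of the cells and 44.8% of T barcodes, and was 799 CPM against 285 CPM (1.48). The recombinase genes Rag1 and Rag2 were listed at 0 in all barcodes.

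Several defining genes of lymphocytes were nearly unseen beside them, though Cd79b was seen in 45 of the 126 cells. In the same 126 cells Trac and Trbc2, constant chains of the T cell receptor, had 3 UMIs each, and Cd79a had 26 UMIs in 5 cells, of which 46.2% were in 1. Cd79a was 21.8 CPM against 230 CPM in all other barcodes and 2216 CPM in B barcodes. The 6 T marker genes, Cd8a and Cd4 among them, were all seen and summed to 645 CPM in plasmacytoid dendritic cells against 577 CPM in all other barcodes, while Cd3g was 8 UMIs and Cd3d was 2. The rule left out barcodes holding Cd3e, 2 of them with enough Siglech. The low counts of Trac, Trbc2, Cd3g and Cd3d were therefore in part set by the rule. The 4 B marker genes summed to 34.3 CPM against 325 CPM.

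Mediators and checkpoint ligands had a median of -2.95 relative to all other barcodes, the lowest among lists with more than 1 gene at the count minimum. Of 23 such genes 17 were lower and 3 higher. Il12a, the p35 subunit of IL-12 and IL-35, had 174, 328, 24.1 and 123 CPM in libraries 1 to 4 and 97.9 CPM (81.0 to 117) pooled, against 5.35 CPM in all other barcodes. Its log2 ratio was 4.19, and 33.3% of the cells held a UMI against 0.377% of T barcodes. Lag3, a receptor that binds class II molecules, had 174, 0, 208 and 269 CPM in the 4 libraries and 249 CPM pooled, against 11.9 CPM, a ratio of 4.39. It was seen in 83.3% of cells, 19.0% after thinning, against 11.4% and 3.36% of T barcodes. Il12b, the partner subunit of Il12a, was the third higher gene (1.25), but 84.3% of its 51 UMIs were in 1 cell. Relative to the type 1, Cd209a and B sets 5 of 18, 5 of 18 and 6 of 19 genes of this list were higher. Lower ones numbered 9, 10 and 8, with list medians of -0.85, -1.40 and -0.28. Over all genes in these comparisons 24.9%, 28.0% and 23.2% were higher and 11.7%, 12.4% and 10.7% lower.

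Among the lower mediators were Gzmb, the protease granzyme B (1 UMI, log2 ratio -5.79), Tnf (-3.80), Cd274, the checkpoint ligand PD-L1 (24.3 CPM against 219 CPM, -3.18), and Cxcl16 (-6.10). Il6 and Ido1 had 0 UMIs, at least 14.1-fold and 3.23-fold lower than in all other barcodes. The chemokine Ccl4 was not past 2-fold: 15223, 0, 1163 and 2186 CPM in libraries 1 to 4 and 2005 CPM pooled against 1431 CPM, a ratio of 0.49. The library 1 value is 1 cell. Relative to the type 1, Cd209a and B sets Ccl4 was higher, by log2 ratios of 3.20, 1.30 and 3.01. Those sets held 219, 812 and 248 CPM of it. For Ccl5 (94.8%) and Cxcl10 (88.7%) nearly all UMIs lay in 1 cell.

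Egfr (chr11:16752203-16918158, + strand of mm10), the growth factor receptor gene deleted in the Egfr{delta}MYL mice, was seen as 10 UMIs in 9 of the 126 cells. The level was 0, 0, 21.1 and 3.58 CPM in libraries 1 to 4 and 8.37 CPM (4.01 to 15.4) pooled, against 3.13 CPM in all other barcodes, a log2 ratio of 1.42 (0.35 to 2.31). Within library 3 all other barcodes held 0.0272 CPM and within library 4 0.250 CPM. The type 1, Cd209a and B sets held 1, 1 and 0 Egfr UMIs. An Egfr UMI was seen in 7.14% of plasmacytoid dendritic cells, against 0.141% of T barcodes (median depths 9814 and 5547.5), and after thinning to 1000 UMIs in 0% and 0.0473%. The genotype of the cells is unknown, and a 3′ tag need not tell a deleted allele from an intact one, so this checks no label. Of the 15 genes of the receptor family, its ligands and feedback regulators, 8 reached the count minimum, with 2 higher (Egfr and Erbb3, 16 UMIs, 1.34) and 4 lower, among them the ligands Areg (-3.71) and Hbegf (-5.05). The shares over all genes tested were 16.7% higher and 18.1% lower.

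Genes of transitional dendritic cells, a population between plasmacytoid and conventional ones, were divided. Of 15, 5 were higher and 8 lower, with a median of -1.93. The receptor Axl (-5.32), the lysozyme gene Lyz2 (30.1 CPM against 3251 CPM, -6.75) and Cx3cr1 were low. Clec10a and Cd209a, lectins known from type 2 conventional dendritic cells, were 335 CPM against 18.8 CPM (4.15) and 134 CPM against 13.9 CPM (3.27). The Cd209a set, chosen on that gene, held 317 CPM of Clec10a, close to the plasmacytoid dendritic level. Clec9a, by which the type 1 set was chosen, was seen in 43.7% of plasmacytoid dendritic cells, whereas Xcr1 had 0 UMIs in them.

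Most cell cycle and handling genes were low relative to all other barcodes, and most secretory pathway genes were within 2-fold of them. Of 12 proliferation genes 10 were lower and 0 higher (median -2.86), with Mki67 at 7 UMIs, or 5.86 CPM against 68.4 CPM, and Cdk1, Birc5 and Rrm2 at 0. Of 12 genes known to respond to tissue dissociation 8 were lower and 0 higher (median -1.88), such as Dusp1 (-3.50) and Junb (-2.58). Fos (-0.20) and Jun (0.59) were not past 2-fold, and within libraries 3 and 4 the ratio of Jun was 1.05 and 1.00. Relative to B barcodes 3 of the 12 were higher and 3 lower (median -0.14), and relative to type 1 dendritic barcodes 1 and 6. Over all genes compared with B barcodes 23.2% were higher and 10.7% lower, and with type 1 dendritic barcodes 24.9% and 11.7%. Of 22 secretory pathway genes 2 were higher and 1 lower, with a median of 0.50: Herpud1, of endoplasmic reticulum stress (1.28), Sec61b, a subunit of the translocon (1.09), and Derl3 (1 UMI, -5.02). Among all genes tested 16.7% were higher and 18.1% lower, with a median of 0.29. Relative to type 1 dendritic barcodes 9 of 21 secretory pathway genes were higher and 1 lower (median 0.86, all genes 0.35). For the Cd209a set these were 11 of 21 and 0 (median 1.10, all genes 0.45), beside 28.0% higher and 12.4% lower over all genes. For B barcodes they were 6 of 22 and 2 (median 0.63, all genes 0.36).

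The 10 genes with the lowest ratios were those of red cells (Hba-a1, Hba-a2, Hbb-bs and Hbb-bt), epithelium (Krt8, Spink4, Lyz1) and myeloid cells (Inhba, Cxcl1, Ms4a6d). The haemoglobin genes are close copies that may share reads. Hba-a1 was 1 UMI against 1138 CPM in all other barcodes, a log2 ratio of -10.41 (-15.71 to -7.93). In the other barcodes of libraries 3 and 4 it was 1.55 and 43.1 CPM, so the haemoglobin ratio rests mainly on libraries 1 and 2, which hold 3 of the 126 cells. The same holds for the epithelial genes. Krt8 was 353 CPM over all other barcodes but 12.3 and 22.4 CPM in those of libraries 3 and 4. Spink4 was 888 CPM over all of them but 27.1 and 20.4 CPM in those 2 libraries, and Lyz1 was 419 CPM but 72.4 and 12.5 CPM. Inhba and Ms4a6d did not depend on those libraries, with 313 and 211 CPM in the other barcodes of library 4 against 1.19 CPM each, or 1 UMI, in its plasmacytoid dendritic cells.

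Some adhesion and receptor genes known from vessels and epithelium were high, while several other markers of those tissues were nearly unseen. Cdh5, the VE-cadherin of blood vessels, was 63.6 CPM against 1.43 CPM in all other barcodes, a log2 ratio of 5.48 (34.1% of plasmacytoid dendritic cells had a UMI, against 0% of T barcodes), and Kdr, a VEGF receptor, had 4.72. Pecam1, of vessels and leukocytes, had 1.27. Plvap, another endothelial marker, was 1 UMI, and the list of 4 summed to 203 CPM against 45.3 CPM. Cdh1, the E-cadherin of epithelium, was 101 CPM against 35.9 CPM (1.50), and seen in 53.2% of the cells. Within libraries 3 and 4 its ratio was 4.11 and 3.15. Of the other epithelial markers, Krt19 had 0 UMIs, Krt8 had 1, Krt18 had 2 and Epcam had 35, and the list of 5 summed to 133 CPM against 1278 CPM.

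RNA of other cell types in the 126 cells was uneven. Fibroblast markers (Col1a1, Col1a2, Col3a1 and Dcn) had 0 UMIs. The 4 plasma cell markers summed to 121 CPM against 8766 CPM in all other barcodes. A UMI of any of these 4 was held by 60.3% of the cells and 59.6% of other barcodes, and Jchain was seen in 76 cells. The 6 macrophage markers summed to 408 CPM against 9764 CPM in all other barcodes, with Adgre1 at 0. The C1q limit of the rule left out barcodes with more macrophage RNA, so this low sum was in part set by it. The 5 neutrophil markers, all seen, summed to 1434 CPM against 14946 CPM. In the cells of libraries 3 and 4 they summed to 3865 and 512 CPM, and 92.5% of the S100a8 and S100a9 UMIs lay in 3 cells, where these genes took 2.43, 6.22 and 8.06% of UMIs. With these cells and those holding under 3 of the 7 identity genes left out, a choice made after the values were seen, 121 cells remained, with 1582 genes higher and 1668 lower, and all 20 and all 10 named genes kept their direction. The part of such RNA in single gene values was otherwise not tested.

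Of 951 genes with at least 200 UMIs, the spread between cells, as chi-square over its degrees of freedom (1 where only counting error acts), had a median of 1.51 and was over 2 for 303. It was highest for S100a9, the lincRNA Gm42418, S100a8, Cxcl2 and Malat1, where 34.3% of the S100a9 UMIs and 46.3% of the S100a8 UMIs lay in 1 cell. Ccl4 came next with 56.6, and Cd69 had 30.3, Ly6d 29.6, Klk1 25.4 and H2-Aa 13.96. This measure grows with a gene's level, and the abundant cytoskeletal genes Actb (33.4) and Tmsb4x (30.4) were also among the highest. Klk1 was seen in 67 of 126 cells, and 13 of them held 66.0% of its UMIs, with 0, 0, 976 and 521 CPM in libraries 1 to 4. Ccl4 was seen in 74 cells, 13 of which held 60.3% of the UMIs. The top 13 cells held 30.8% of the Ccr9 UMIs, 34.3% of the Ly6d UMIs and 20.6% of the Tcf4 UMIs.

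**Figure D3:**
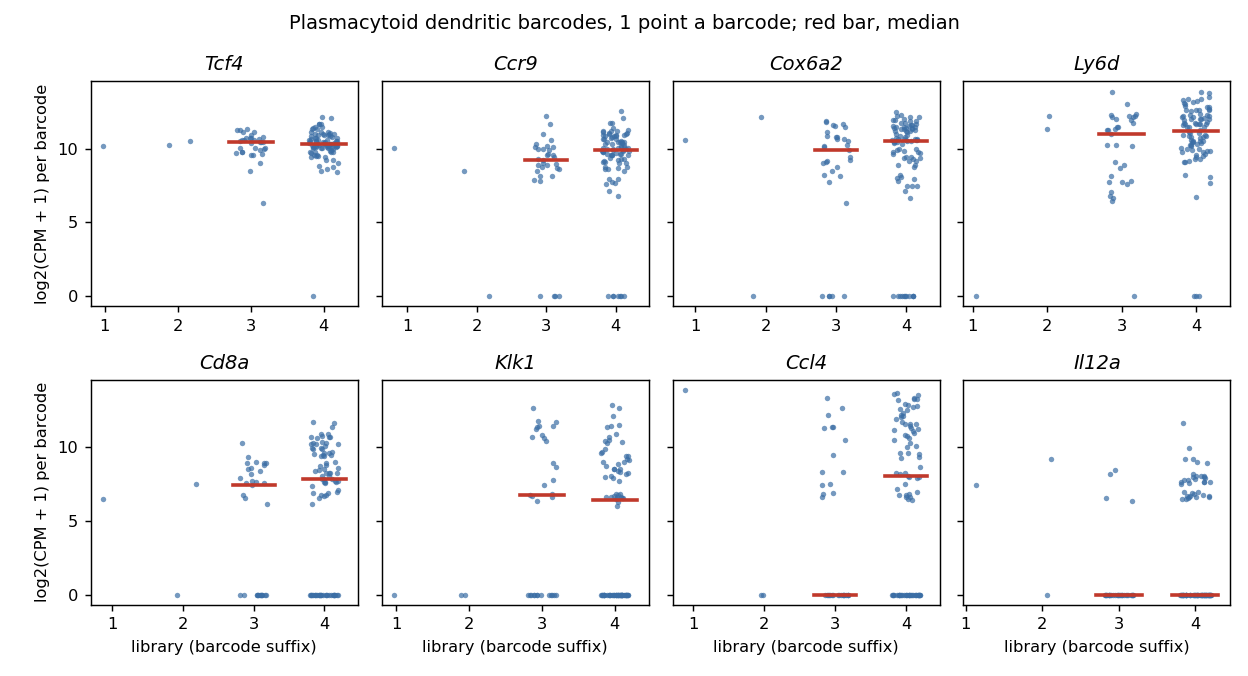
Level of 8 genes in each of the 126 plasmacytoid dendritic barcodes, as log2(CPM + 1), by library; the red bar is the median where a library has more than 2 barcodes. Tcf4 forms 1 band in libraries 3 and 4, while Klk1, Ccl4 and Il12a were at 0 in many barcodes; the empty stretch above 0 is the step to 1 UMI on this scale.

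Some genes moved together from cell to cell. These are descriptions over the same 126 cells, which share libraries and differ in depth, and the pairs were picked after the most variable genes were seen. H2-Aa and H2-Ab1 had a Spearman rho of 0.89 (0.90 within library 3 and 0.88 within library 4), and H2-Aa and Cd74, the invariant chain, 0.83. Of the 126 cells 104 held both H2-Aa and H2-Ab1 and 12 held neither. Ccl4 went with Cd69, an early activation marker, at 0.55 (0.59 and 0.48 within libraries 3 and 4), and with the immediate early genes Jun and Fos at 0.42 and 0.39. Cd69 was 580 CPM in plasmacytoid dendritic cells against 88.6 CPM in all other barcodes (log2 ratio 2.71), and seen in 73 cells. Klk1 and Klk1b27 had 0.54, where shared reads may add to the value. Cd8a and Cd8b1, whose products pair on T cells, had 0.03, and 50 cells held both, 34 only Cd8a, 21 only Cd8b1 and 21 neither. Siglech and Tcf4 had 0.14.

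**Figure D4:**
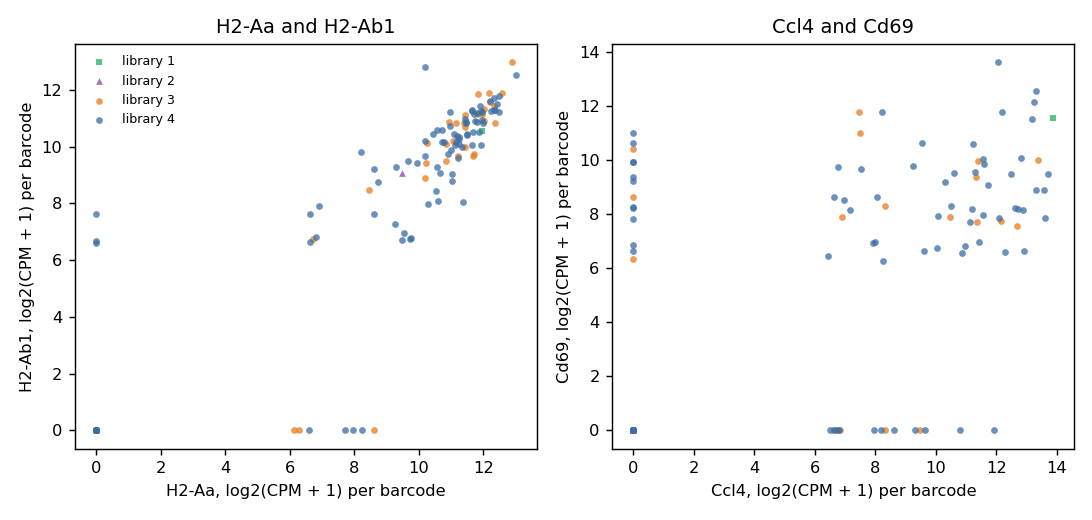
Level of H2-Ab1 against H2-Aa and of Cd69 against Ccl4 in each of the 126 plasmacytoid dendritic barcodes, as log2(CPM + 1), coloured by library. H2-Aa and H2-Ab1 lie along a diagonal (rho 0.89) with barcodes of libraries 3 and 4 mixed, and the Ccl4 and Cd69 panel is looser (rho 0.55), with many barcodes at 0 for 1 or both genes.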

How the data were processed

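The labels describe a droplet 3′ assay (10x Genomics) that counts UMIs. The authors deposited unnormalized UMI counts of each gene in each barcode; the submitters' processing notes name Cell Ranger 3.0.2 and the mouse build mm10, and the annotation release was not stated. Barcodes were filtered as stated above, and doublets were kept: Scrublet (scanpy 1.11.5) marked only 62 barcodes, a number so low that its calls were not used, and leaving out the 625 highest scores was an alternative. UMIs were summed over barcodes and scaled to CPM (numpy 2.4.6, scipy 1.17.1, Python 3.11.15). Intervals are exact: Poisson for a level, binomial for a share and conditional binomial for a ratio. A gene at 0 UMIs was set to 3 counts to bound its fold. The genes named are the 20 highest and 10 lowest ratios with at least 30 UMIs seen or expected, and genes of 16 lists. The members and lists were chosen with earlier results of these data known. The calculation was tested on simulated data. Genes matched the GENCODE annotation of GRCm38 by identifier for 30934 of 31053.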

Additional observations from a re-analysis of the deposited data

How the results depend on the processing

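No paired analysis was possible because barcodes could not be assigned to the labelled samples. The 20 highest and 10 lowest genes kept their side of 2-fold in each alternative that recomputed their ratios, except Spink4, whose ratio became -0.04 with cells of at least 1 Siglech UMI. Leaving out cells with a marker UMI of another type (Clec9a among those markers) kept 50 cells and 968 lower genes. Leaving out each library kept 36 to 125 cells, 1075 to 1775 higher and 881 to 1607 lower genes. Without single libraries, higher and lower genes numbered 1498 to 2138 and 561 to 1004 relative to type 1 dendritic barcodes, 1358 to 2397 and 666 to 1061 relative to Cd209a barcodes, and 1400 to 2053 and 509 to 928 relative to B barcodes. Between 2 and 4 lists then had a median log2 ratio of at least 1, and 5 to 7 of -1 or lower, against 2 and 7 with all libraries. Thinning to 1000 UMIs gave 776 higher and 425 lower genes, 792 and 442 relative to type 1 dendritic barcodes, 795 and 451 relative to Cd209a barcodes and 860 and 300 relative to B barcodes, with 5 lists at a median of 1 or more and 2 at -1 or lower. Thinned or smaller sets have fewer UMIs, so fewer genes reach the minimum. A minimum of 30 UMIs gave 853 lower genes, and no minimum gave 2421 higher and 2541 lower. The interferon response median became 0.90 without cells holding other markers, -2.26 to 0.33 without single libraries (0.33 without library 4), 0.99 thinned and 0.81 with a minimum of 30 UMIs. Against -2.24 as reported it was also -0.77 with at least 1 Siglech UMI, -0.98 with at least 3, -0.92 without the highest Scrublet scores and -0.97 without the cells with neutrophil RNA or few identity genes. The EGFR family median became -3.75 with at least 3 Siglech UMIs and 0.41 thinned, and the interferon gene median became 3.10 with no minimum, where nearly all its genes sit at a 3-count bound; beyond the fewer genes tested, the cause was not tested. Leaving out 5 cells with neutrophil RNA or few identity genes was added after seeing the data.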
